A study of Homo sapiens with 24 samples.

Results

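The genes described here are 8 regulators of the kinase AKT: the phosphatases PHLPP1 and PHLPP2, the kinases AKT1 and AKT2, and MTOR, RICTOR, PRR5 and PRR5L of the mTORC2 complex. They were chosen by name, because METTL14 with the substitution R298P has been tied to AKT signalling through PHLPP2 and mTORC2. Of the 10287 protein-coding genes whose span held at least 1 m6A summit in the series, 6 were members of this set. Summits, the highest points of enrichment after immunoprecipitation with an anti-m6A antibody, were counted wherever they lay inside a gene's RefSeq span on hg38.

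AKT is switched on by phosphorylation at a site in its activation loop, added by PDPK1, and at a site in its hydrophobic motif, added by mTORC2. PHLPP1 and PHLPP2 remove the phosphate from the hydrophobic motif and so oppose mTORC2. N6-methyladenosine (m6A) is written into mRNA by METTL3 with its partner METTL14, lies mostly near stop codons and in 3′ untranslated regions, and is read by proteins that affect the decay and translation of the message.

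Poly(A) RNA came from HepG2, an established liver cancer cell line. It carried a lentiviral cassette for EGFP (the control), METTL14 (WT), METTL14 (R298P) or METTL14 (D312A), under puromycin selection, and all 4 lines share the HepG2 background. The labels describe overexpression and name no removal of the endogenous METTL14, and each line is 1 transduced culture sampled in 3 biological replicates, so p-values measure the spread between cultures of the same line. Each replicate gave 1 immunoprecipitated and 1 input library, 24 samples in all.

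The 12 lists held 155075 summits, from 8669 to 15373 a library, and the lists were shorter in R298P, with 12424 ± 1139 summits, and in D312A, with 11125 ± 2127, than in WT, with 14177 ± 1358 (SD, n = 3). The read depth behind them is unknown. METTL14 itself held 1 summit in each EGFP library and between 3 and 11 in each library of the other lines, a check on the presence of the constructs by which WT and the substituted forms cannot be told apart. All 10 hepatocyte markers examined held summits in some library, from 7 to 102 in sum a library. Of markers of other cell types, 2 of 7 fibroblast, 3 of 5 blood and 2 of 4 endothelial markers held any summit, with sums of 0 to 4, 2 to 6 and 0 to 1 a library, and COL1A1, COL1A2, COL3A1, DCN, LUM, PTPRC, HBB, VWF and KDR held 0 in every library. A summit depends on the amount of the RNA as well as on its methylation, and these cannot be told apart here because the input values of the members were not analysed.

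Over all 12 libraries the members held 181 summits, 0.117% of the total. Joining neighbouring summits within 100 nt gave 31 regions in their spans, 3 of them shared by every library and 7 seen in a single library. In the whole series these classes took 9.91% and 35.8% of 34313 regions, and among the members 9.68% and 22.6%. AKT1 and PRR5L held 0 summits in every library, which for a list of called summits says only that no summit reached the caller's threshold there.

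Of the 181 summits, 99 (54.7%) lay within 5 kb of the 3′ end of the gene span and 25 (13.8%) within 2 kb of its 5′ end, against 51.3% and 13.7% over all protein-coding genes. The members differed in this. All 31 PHLPP2 and all 20 AKT2 summits lay within 5 kb of the 3′ end. PHLPP1 was split, with 24 summits within 2 kb of the 5′ end and 23 within 5 kb of the 3′ end. PRR5 and RICTOR had most of their summits farther inside, with 24.5% and 38.5% within 5 kb of the 3′ end. Exons were not used here, so untranslated regions and introns are not told apart.

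PHLPP1 (chromosome 18, 62715541 to 62980433, plus strand) was marked at both ends in every line. Its region at 62717191 to 62717209, 1650 to 1668 nt from the start of the span, and that at 62979435 to 62979477, 956 to 998 nt from the end, were present in all 12 libraries. The gene held 4, 4 and 3 summits in EGFP replicates 1, 2 and 3, 4, 4 and 5 in WT, 4, 4 and 4 in R298P and 4, 3 and 4 in D312A. The ranges of all 4 lines overlapped. R298P minus WT was -0.333 summits (exact permutation test, two-sided, p = 1.0), and 0.177 after scaling to 10000 summits a list.

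A further PHLPP1 region reached across the start of the span (62715490 to 62715651) and was present in 2 EGFP, 2 WT, 3 R298P and 2 D312A libraries. The EGFP replicate 1 summit of this region lay before the start and was not counted in the gene. The 30 bases that open the span are shown because summits of 3 libraries fell inside them (RefSeq, GRCh38.p14, chr18:62715541-62715570, plus strand; capitals mark the bases under the summits of D312A replicates 2 and 3 and WT replicate 2):
PHLPP1 start: cataATccCctggaacggccgcgcacaacg
The letters GGAC, a common core of m6A sites, and GGACT were searched on both strands in the first 50 bases of the span; a GGACT match is also a GGAC match. They were found 0 times there, while 33.5% and 9.62% of 35116 promoter windows held them in the same 50 bases. This is a description of these letters only.

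The other PHLPP1 regions near the 3′ end were less regular. The region at 62978960 to 62978992 was present in 3 of 3 WT, 2 of 3 EGFP, 2 of 3 D312A and 1 of 3 R298P libraries, the R298P one being replicate 1. That at 62979116 to 62979128 was present in 2 WT and 1 R298P libraries. Tests of presence in R298P against the other 9 libraries gave p = 0.491 and 1.0 (exact permutation, two-sided).

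PHLPP2 (chromosome 16, 71644924 to 71724701, minus strand) carried its summits in a stretch 3211 to 4957 nt from the 3′ end. Only 1 of its regions, 71649110 to 71649216, was present in all 12 libraries, with summits spread over 107 nt. The share of the list below its deposited value (−log10 p or q) was 13.1%, 75.6% and 10.7% in R298P replicates 1, 2 and 3. In WT it was 59.4%, 88.8% and 29.7%, in EGFP 89.2%, 89.7% and 37.7% and in D312A 29.7%, 49.6% and 35.7%. At 71648135 to 71648153 it was 79.2%, 15.1% and 78.8% in R298P and 36.9% and 41.3% in WT replicates 1 and 3. These differences were not tested. EGFP replicates 1, 2 and 3 held 2, 1 and 3 summits in the gene. WT held 2, 3 and 4, R298P 3, 3 and 3, and D312A 3, 2 and 2. The means were 2.0 ± 1.0, 3.0 ± 1.0, 3.0 ± 0 and 2.33 ± 0.577 in the order EGFP, WT, R298P, D312A (SD, n = 3). In every pair of lines the ranges overlapped.

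R298P minus WT was 0.0 summits in PHLPP2 (exact permutation test, two-sided, p = 1.0). The difference was 0.303 per 10000 summits of a list, 1.0 in lists of equal length (exact permutation, two-sided, p = 0.4), -0.333 among summits with a deposited value of at least 10, and -0.5 to 0.5 with a library left out, the extremes without WT replicate 1 and without WT replicate 3. Compared with the other 9 libraries together, R298P was 0.556 higher, which did not pass (exact permutation test, two-sided, p = 0.423). Within the gene, the region at 71648135 to 71648153 was present in 3 of 3 R298P libraries and in 1 EGFP, 2 WT and 2 D312A libraries. The neighbouring region at 71648849 to 71648975 was present in 0 of 3 R298P, 1 EGFP, 2 WT and 1 D312A libraries. Its WT summits lay at its ends, 71648849 and 71648975, with values of 6.14 and 8.00 and 2.46% and 10.7% of the list below. They were joined only through EGFP and D312A summits at 71648878 and 71648888, and merging within 50 nt does not join them. The region at 71649784 to 71649881 was present in 1 EGFP, 2 WT, 2 R298P and 1 D312A libraries, and 71649673 in R298P replicate 1 alone. No PHLPP2 region passed a test of presence in R298P against the remaining libraries (exact permutation, two-sided, lowest p = 0.491).

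The 3 genes whose summit numbers over the 12 libraries were most like those of PHLPP2 were DDA1 (Pearson r 0.807, Spearman rho 0.709), USP32 (0.776 and 0.809) and PATZ1 (0.775 and 0.817), among 1800 genes with at least 2 summits a library on average. These are descriptions over libraries that differ in list length.

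AKT2 (chromosome 19, 40230317 to 40285345, minus strand), the AKT form best known for its part in insulin action in liver, held 2 sites in most libraries and 1 in every R298P library. The sites lie 3333 to 3362 nt (40233650 to 40233679) and 2607 to 2652 nt (40232924 to 40232969) from the 3′ end. AKT2 held 2 summits in each of the 3 EGFP and 3 WT libraries, 1 in each R298P library, and 2, 1 and 2 in D312A replicates 1, 2 and 3. R298P lay below EGFP and WT without overlap, and 1 D312A library reached the R298P level.

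The difference of R298P minus WT in AKT2 was -1.0 summits, in 3 of 3 replicate numbers, with p = 0.1, the smallest that the 20 assignments of an exact two-sided permutation test allow. Against the other 9 libraries the difference was -0.889 summits, 1.0 ± 0 (SD, n = 3) against 1.89 ± 0.333 (SD, n = 9 libraries of 3 lines). An exact two-sided permutation test over 220 choices of 3 libraries gave p = 0.0182. Adjusted over the 10287 genes (Benjamini-Hochberg) the p was 1.0, and 0 genes of the series passed after adjustment. With 0.00455 as the smallest p of this test, a gene can pass over so many genes only if a large number pass together. Failure after adjustment therefore says nothing about a single gene or region, here and in the other tests over 220 choices. At the unadjusted threshold of 0.05, 1.29% of all genes were lower in R298P and AKT2 was the only 1 of the 6 members to be so; 1.88% were higher, with 0 members. In EGFP and D312A 0 members passed, against 0.146% lower and 2.23% higher of all genes in EGFP and 1.63% and 0.35% in D312A. These shares are over all genes with a summit in any library, including genes with too few summits to pass. Leaving out any single R298P library, replicate 1, 2 or 3, ended the call of AKT2, with an exact permutation p of 0.0545 each time. The R298P lists were also shorter than the WT lists; in lists cut to equal length the difference was -1.22 (exact permutation, two-sided, p = 0.0136).

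Which of the AKT2 sites was left differed between R298P libraries. Replicate 1 had a summit at the upstream site alone, at 40233679 and with a deposited value of 8.29, and replicates 2 and 3 had a summit at the downstream site alone. The upstream site was present in 3 of 3 EGFP, 3 of 3 WT, 2 of 3 D312A and 1 of 3 R298P libraries, and the downstream site in 9 of 9 libraries outside R298P and 2 of 3 of R298P. The value is the authors' −log10 p or q and ranks summits within a list. The R298P replicate 1 summit at the upstream site had 18.4% of its list below it, and those of the other lines had between 33.7% and 67.5%. Taken site by site, presence in R298P against the remaining libraries did not pass (exact permutation, two-sided, p = 0.127 and 0.25).

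**Figure D1:**
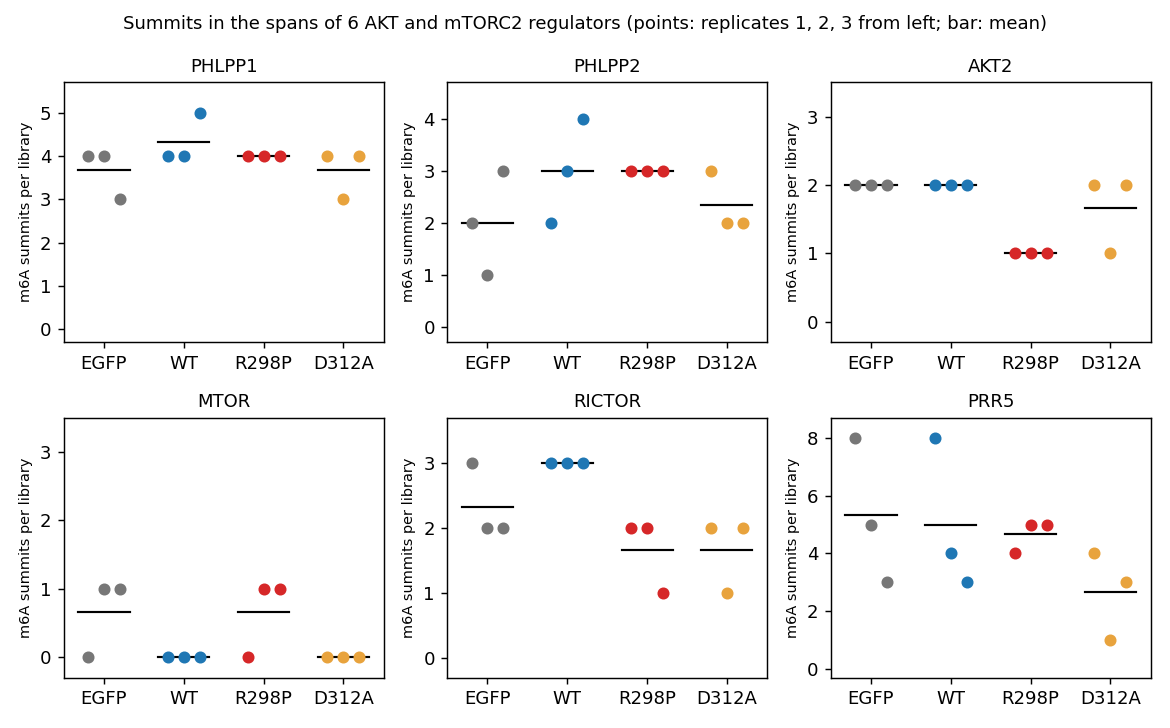
Number of m6A summits per library (vertical axis) in the spans of PHLPP1, PHLPP2, AKT2, MTOR, RICTOR and PRR5, for the 4 lines (horizontal axis). Points are replicates 1, 2 and 3 from left to right and bars the means; AKT2 sits at 1 in each R298P library and at 2 in every EGFP and WT library, and RICTOR at 3 in every WT library.

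MTOR (chromosome 1, 11106535 to 11262551, minus strand), the kinase of both mTOR complexes, was nearly empty. It held 0, 1 and 1 summits in EGFP replicates 1, 2 and 3, the same numbers in R298P, and 0 in all WT and D312A libraries. EGFP replicate 3 and R298P replicate 3 shared a position within 3 nt (11107232 and 11107234), 697 and 699 nt from the 3′ end. The other summits were alone, at 11130561 in EGFP replicate 2 and at 11262488 in R298P replicate 2, the latter 63 nt from the 5′ end of the span. The difference of R298P minus WT was 0.667 summits (exact permutation test, two-sided, p = 0.4).

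RICTOR (chromosome 5, 38937920 to 39074399, minus strand), the scaffold that defines mTORC2, held 3 summits in each WT library, 2, 2 and 1 in R298P, 2, 1 and 2 in D312A and 3, 2 and 2 in EGFP. WT lay above R298P and above D312A without overlap, while EGFP overlapped all other lines. Against the remaining 9 libraries WT was higher by 1.11 summits (exact permutation, two-sided, p = 0.0455; adjusted over 10287 genes, 1.0), where 2.17% of all genes were higher in WT and 0.0389% lower. R298P minus WT and D312A minus WT were both -1.33 summits (p = 0.1 for each, the lowest an exact permutation test can give here, two-sided). Of the 6 members with summits, 2, AKT2 and RICTOR, were below WT in every R298P library, where 3.3% of all genes were, and 0 were above it, where 0.721% were. AKT2 alone was below EGFP in every R298P library, against 3.1% of all genes, and 0 members were above, against 0.783%. RICTOR alone, 1 of 5, was below WT in every D312A library, against 3.44%, and 0 were above, against 0.0884%. The other pairs of lines separated 0 of 6 members. For these the shares of all genes were 0.573% lower and 2.13% higher in R298P than D312A, 3.16% and 0.153% in D312A than EGFP, and 0.597% and 0.821% in WT than EGFP. All of these shares are over genes with a summit in any library of the pair of lines. A gene with 0 summits in some WT library cannot lie below WT, while AKT2 and RICTOR held summits in all 12 libraries. Shares among genes with as many summits as these were not computed.

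The RICTOR sites behaved differently from each other. That at 38942130 to 38942190, 4210 to 4270 nt from the 3′ end, was present in 9 of 9 EGFP, WT and D312A libraries and in 1 of 3 R298P libraries (exact permutation test over 220 choices, two-sided, p = 0.0455; adjusted over 18629 regions that were in 2 to 11 libraries, p = 0.806). In the 9 libraries its deposited value lay between 19.5 and 33.9, with 76.6% to 96.4% of the list below it. The single R298P summit, in replicate 1, was at the far end of the region (38942190) and had a value of 5.16, with 0.794% of its list below it. R298P replicates 2 and 3 had no summit there.

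This site lies where the span of RICTOR overlaps that of OSMR, the oncostatin M receptor on the plus strand, and the lists carry no strand, so either RNA may carry it. The part of OSMR outside the RICTOR span held 1 summit in each of the 12 libraries, R298P included. With summits in the span of another protein-coding gene left out, R298P minus WT was -0.667 in RICTOR and the lines overlapped (exact permutation, two-sided, p = 0.4). They overlapped in lists of equal length too, with a difference of -1.67 (exact permutation, two-sided, p = 0.2), so in both settings AKT2 was the only member that separated R298P from WT. The RICTOR sites outside the overlap were at 38950078 to 38950095, present in 3 EGFP, 3 WT, 2 R298P and 2 D312A libraries, and at 38950314 to 38950323, present in 1 EGFP, 3 WT, 2 R298P and 0 D312A libraries. For both, the test of presence in R298P against the remaining libraries gave p = 1.0 (exact permutation, two-sided).

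**Figure D2:**
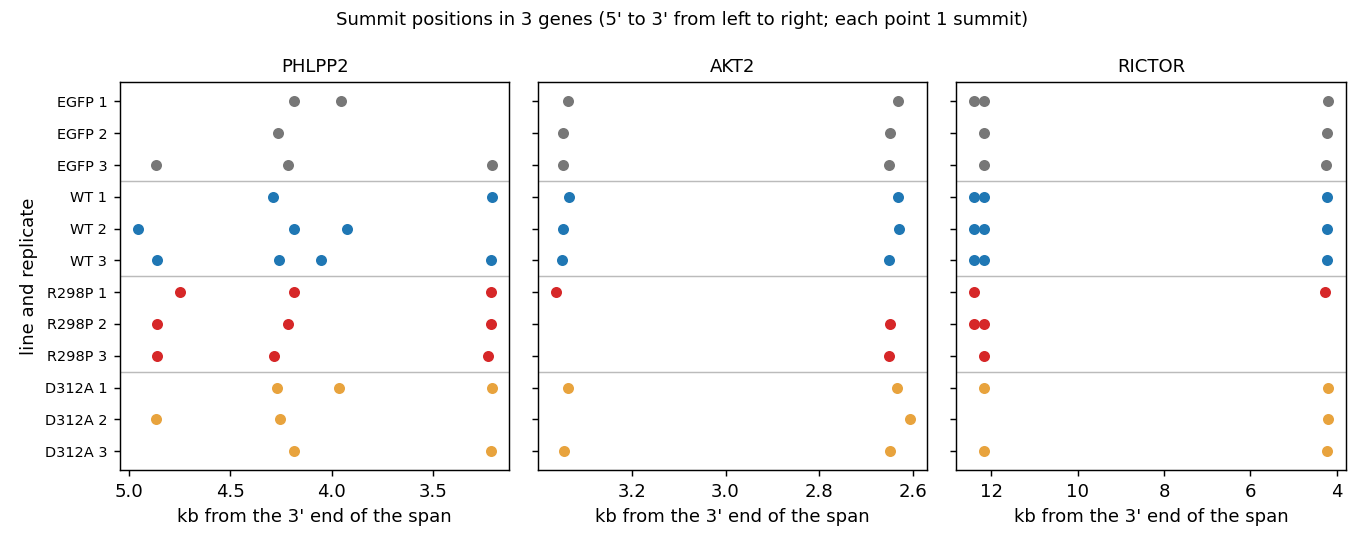
Position of each summit in PHLPP2, AKT2 and RICTOR, in kb from the 3′ end of the gene span (horizontal axis), for each library (vertical axis, line and replicate). R298P libraries have 1 AKT2 summit each, at either site, and only R298P replicate 1 has a summit at the RICTOR site nearest the 3′ end.

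PRR5 (chromosome 22, 44668751 to 44737681, plus strand), also called PROTOR1, binds RICTOR in mTORC2. It held the most summits of the members in sum over the 12 libraries, 53 against 47 in PHLPP1, with 8, 5 and 3 in EGFP replicates 1, 2 and 3, 8, 4 and 3 in WT, 4, 5 and 5 in R298P and 4, 1 and 3 in D312A. All lines overlapped. R298P minus WT was -0.333 summits over all replicates, -4 in replicate 1 and 1.5 in the other replicates, and 0.247 per 10000 summits of a list. D312A differed from the remaining libraries by -2.33 (exact permutation test, two-sided, p = 0.0955; adjusted over 10287 genes, 1.0), and D312A replicate 2, with its single summit, was also the shortest list.

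All PRR5 summits but those at 44679744 to 44679819 lie where its span overlaps that of the readthrough gene PRR5-ARHGAP8, and the part of that gene outside PRR5 held 0 summits in every library. The region at 44737047 to 44737181, 500 to 634 nt from the 3′ end, was present in 11 libraries, missing only from D312A replicate 2. The region at 44729639 to 44729682 was present in 3 of 3 R298P, 1 of 3 EGFP, 1 of 3 WT and 0 of 3 D312A libraries. Its presence was higher in R298P than in the other 9 libraries (exact permutation test, two-sided, p = 0.0455; adjusted over 18629 regions, 0.806), and both other libraries that held it were replicate 1. Of the 21 member regions in 2 to 11 libraries, this was the only 1 more often present in R298P at the unadjusted threshold, against 3.47% of all such regions. The RICTOR site in the overlap with OSMR was the only 1 less often present, against 2.17%. For the other lines 0 of the 21 passed either way, against 2.48% and 0.354% of all such regions more and less often present in EGFP, 2.5% and 0.263% in WT and 0.494% and 1.71% in D312A. The region at 44729917 to 44729946 was present in 3 EGFP, 1 WT, 2 R298P and 0 D312A libraries, and that at 44728449 to 44728475 in 1 EGFP, 2 WT, 1 R298P and 3 D312A libraries.

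Between pairs of lines, a call needed a region in 3 of 3 libraries of a line and in 0 of 3 of the other, among regions present in at least 3 of the 6. In R298P against WT, 0 of 20 member regions were gained and 0 lost, where 1.54% and 3.72% of all regions were. In R298P against EGFP, 0 of 17 were gained and 0 lost, against 1.75% and 3.47%. In R298P against D312A, the PRR5 region at 44729639 was gained, 1 of 16, against 3.22% of all regions, and 0 were lost, against 0.799%. In D312A against WT, the RICTOR region at 38950314 was lost, 1 of 17, against 2.77%, and 0 were gained, against 0.243%. In D312A against EGFP, the PRR5 region at 44729917 was lost, 1 of 15, against 2.54%, and 0 were gained, against 0.364%. In WT against EGFP 0 of 18 changed either way, against 0.854% gained and 0.534% lost. With 3 libraries a line no single region can pass a test here. Of the 3 called regions, the RICTOR region was still called among summits with a deposited value of at least 10 and none was in lists of equal length. In lists of equal length and among summits with a value of at least 10, the PRR5 gain in R298P against D312A was gone and the RICTOR site at 38942130 was lost instead, so the direction of the call turned. In the same settings the D312A against EGFP loss was at PRR5 44737047 to 44737181 in place of 44729917, and in lists of equal length the D312A against WT loss was in PHLPP1, at 62978981 to 62978992, in place of RICTOR.

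By a wider rule, a difference of at least 2 libraries, 1 of 21 member regions was more often present in R298P than in WT, that of PRR5 at 44729639, where 8.29% of all regions were. By the same rule 4 of 21 were less often present, where 15.9% of all regions were. In R298P against EGFP 2 of 20 were more and 2 less often present, against 9.52% and 15.1% of all regions, and in R298P against D312A 3 and 2 of 18, against 13.9% and 6.71%. In D312A against WT 0 and 4 of 19 were, against 2.99% and 15.6%, in D312A against EGFP 1 and 2 of 17, against 3.79% and 14.9%, and in WT against EGFP 3 and 1 of 22, against 6.92% and 6.04%. The 4 that were less often present in R298P than in WT were the AKT2 upstream site, the RICTOR site in the overlap with OSMR, PHLPP2 71648849 to 71648975 and PHLPP1 62978960 to 62978992. Merging within 50 nt would not join the WT summits of the PHLPP2 region. Among summits with a deposited value of at least 10, the AKT2 upstream site, the RICTOR site in the overlap with OSMR and the PRR5 region at 44728953 were present in 3 of 3 WT and 0 of 3 R298P libraries, where 4.37% of all regions were lost in this way and 1.97% gained. All 3 were present in 3 of 3 EGFP libraries too. In the uncut lists the PRR5 region was also in 2 of 3 R298P libraries, with values just under the cut, 9.44 in replicate 1 and 8.78 in replicate 3. The RICTOR site, but neither of the others, was also in 3 of 3 D312A libraries among summits with a value of at least 10. How many member regions were open to a call at this value was not counted, so no member share stands beside those of all regions.

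Names of the deposited lists carry another prefix for replicate 1 of every line than for the other replicates. In replicates 2 and 3 alone, 4 member regions were present in both WT and no R298P libraries, namely the AKT2 upstream site, the RICTOR site in the overlap, PHLPP2 71648849 to 71648975 and PHLPP1 62978960 to 62978992, where 9.54% of all regions were lost. Of these, the PHLPP2 region rests on WT summits that merging within 50 nt would not join. In replicates 2 and 3, 2 PRR5 regions, starting at 44729639 and 44729917, were gained, where 5.9% of all regions were. Replicate 1 holds 1 library a line and gives no such count. How many member regions were open to a call in replicates 2 and 3 was not counted, so no member share stands beside those of all regions. In summit number the AKT2 difference was -1 in replicate 1 and -1.0 in replicates 2 and 3, and the RICTOR difference -1 and -1.5.

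**Figure D3:**
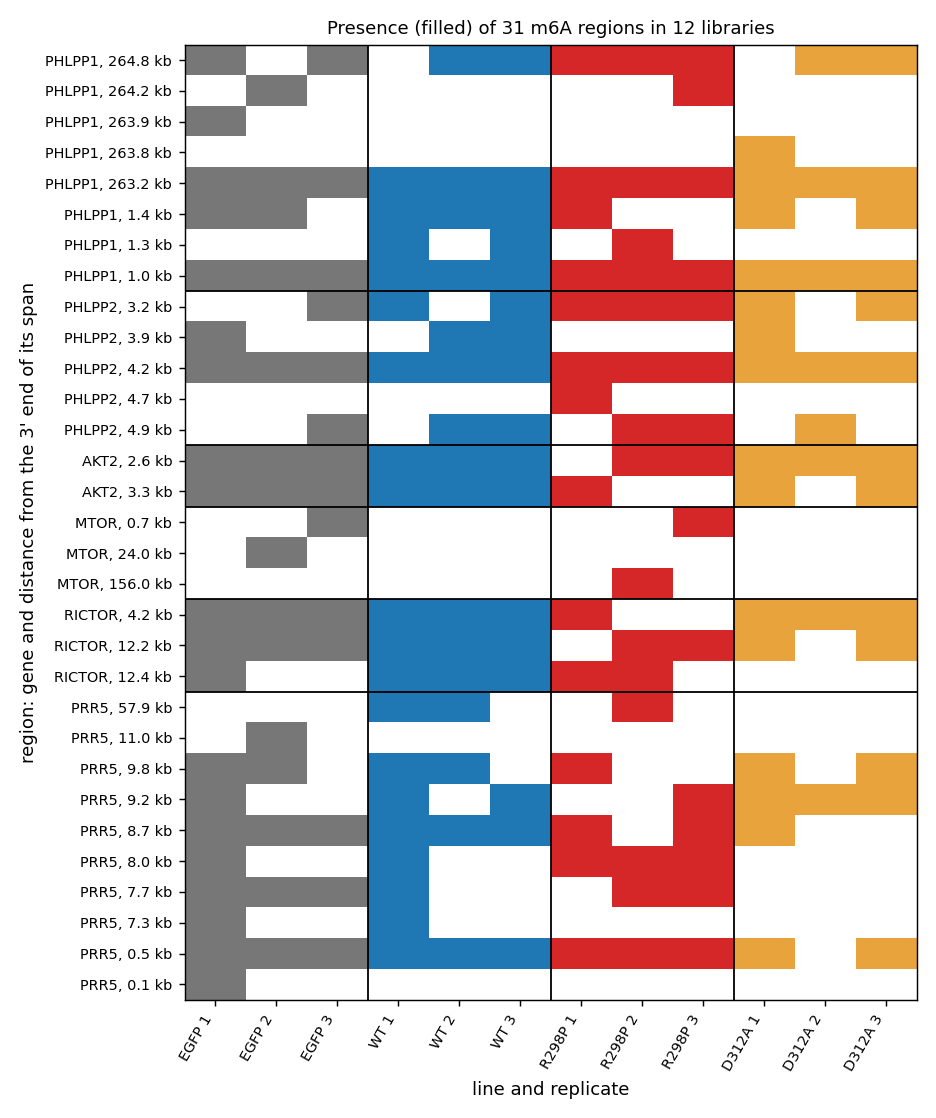
Presence (filled cell) of the 31 regions in the spans of the members (vertical axis, gene and distance in kb from the 3′ end of the span) in the 12 libraries (horizontal axis, line and replicate). PHLPP1 has 2 regions and PHLPP2 has 1 that fill all 12 libraries; the RICTOR row nearest the 3′ end is empty in R298P replicates 2 and 3 alone.

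Of 51 other genes of AKT and mTORC2 signalling, 39 held a summit in some library. Among the 36 with a summit in R298P or WT, the mean was higher in R298P for 11, lower for 21 and equal for 4, with a median difference of -0.333 summits. Among the 6 members it was higher for 1, lower for 4 and equal for 1 (median -0.333). Among 9294 protein-coding genes it was higher for 2686, lower for 4581 (49.3%) and equal for 2027 (median 0.0). The mean difference was -0.167 summits over the pathway genes, -0.389 over the members and -0.181 over all protein-coding genes. PHLPP1 and PRR5, counted as lower here, were higher in R298P per 10000 summits of a list.

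Of 57 regions of these pathway genes in at least 3 of the 6 R298P and WT libraries, 1 was gained and 1 lost in R298P against WT, 1.75% each way, against 1.54% gained and 3.72% lost of all regions. PIK3CD, a catalytic subunit of PI3-kinase, gained a region on chromosome 1 (9727328 to 9727347) found in all 3 R298P libraries and in 0 of the 9 others. Its summit number did not separate the lines, with 1, 2 and 2 in WT and 1, 1 and 2 in R298P. RPS6KB1, the S6 kinase downstream of mTORC1, lost a region on chromosome 17 (59947235 to 59947242) found in 3 WT, 2 EGFP, 2 D312A and 0 R298P libraries. Its summit numbers were 3, 2 and 2 in WT and 2, 1 and 2 in R298P.

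In summit number, 1 pathway gene was lower and 2 were higher in R298P than in the other 9 libraries at the unadjusted threshold, where 1.29% and 1.88% of all genes were. These 3 genes are named after their values were seen. TBC1D4, a Rab GTPase-activating protein that AKT phosphorylates, held 1 summit in each R298P library and 2 or 3 in each of the 9 others (p = 0.00455 in an exact two-sided permutation test, the smallest possible over 220 choices). RPTOR, the mTORC1 counterpart of RICTOR, held 5, 6 and 6 summits in R298P, 4, 4 and 3 in WT, 5, 5 and 4 in EGFP and 3, 3 and 4 in D312A (exact permutation test, two-sided, p = 0.0182). FOXO4, a transcription factor that AKT restrains, held 2, 2 and 1 in R298P and 1, 0 and 0 in WT, which overlap. In EGFP it held 1, 1 and 0, and in D312A 1, 0 and 1. R298P against these other 9 libraries gave p = 0.0455 (exact permutation test, two-sided). None passed after adjustment over all genes, which a single gene cannot do alone in this test.

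**Figure D4:**
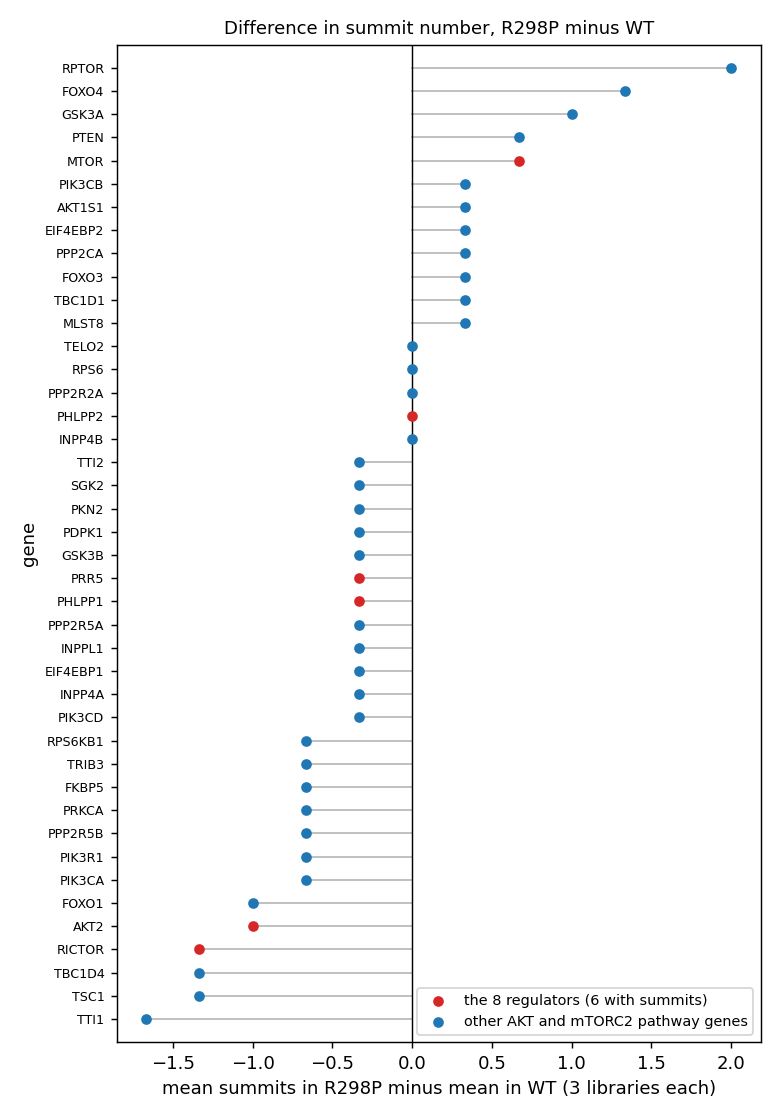
Mean number of summits in R298P minus that in WT (horizontal axis, 3 libraries each) for the 6 members with summits (red) and the 36 other pathway genes with a summit in either line (blue), in order of the difference (vertical axis, gene). RICTOR at -1.33 and AKT2 at -1.0 stand among the lower genes, PHLPP2 at 0.0 and MTOR at 0.667.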

How the data were processed

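The authors deposited 1 list of summits for each of the 12 immunoprecipitated libraries, each with a −log10 p or q value, on hg38 per the submitters' processing notes, which name STAR 2.7.9a and MACS2 2.1.2 among the tools; the sources used here do not say which value it is, nor give the input or settings. The lowest values lie just above 5.0. Summits were counted by position (1-based) in whole RefSeq spans (GRCh38.p14, protein-coding genes) and merged within 100 nt. Lines were compared with exact two-sided permutation tests (Python 3.11.15), adjusted over all genes or regions by Benjamini-Hochberg; the test of region presence over 12 libraries was added after the data were seen. The code was tested on simulated lists.

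The members and lists were chosen with earlier results of these data known. The text names all 8 members, pathway genes with a region gained or lost in R298P against WT, and the 3 genes most correlated with PHLPP2. Outside this rule, TBC1D4, RPTOR, FOXO4, TTI1, TELO2 and TTI2 were chosen from the pathway list after their values were seen. Deviations from the line means over genes gave r = 0.481, 0.189 and 0.218 between same-numbered WT and R298P libraries. Unlike-numbered libraries of these 2 lines gave -0.353 to 0.2, which overlaps these values, so a pairing by number is not clear. In the other pairs of lines at least 1 r was below 0.1. The main tests did not pair the numbers, and the replicate block was an alternative. The deposited table of input RNA gives Ensembl identifiers that the reference table used here does not pair with symbols, and 18 columns of single libraries under codes found in no label, so it was not used and the planned comparison of input expression, like exon classes and site motifs, was not run. Alternatives were other merging distances, summits with a value of at least 10, lists cut to their 8669 best summits, summits in no other protein-coding span, presence in at least 2 more libraries, scaling to 10000 summits, each replicate left out and replicate numbers as a block.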

Additional observations from a re-analysis of the deposited data

How the results depend on the processing

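The wider rule and the left-out replicates were tried with merging within 100 nt alone. By the rule of 3 of 3 against 0 of 3 libraries, counts of called member regions kept within 1.5 times under merging within 50 or 200 nt. With a value of at least 10 they became 3 (R298P against WT), 3 (R298P against EGFP), 2 (D312A against WT) and 1 (WT against EGFP). With lists of equal length they became 2 and 3 in R298P against WT and EGFP. In R298P against D312A the count was 1 in both of these settings but its direction turned, from a PRR5 region gained to a RICTOR region lost. Without summits in another protein-coding span they became 0 in R298P against D312A and in D312A against EGFP. With presence in at least 2 more libraries they were 5 in R298P against WT, 4 against EGFP and 5 against D312A, 4 and 3 in D312A against WT and EGFP, and 4 in WT against EGFP. Leaving out a replicate number gave 0 to 6 in R298P against WT and 0 to 3 in R298P against EGFP, both highest without replicate 1, 1 to 3 in R298P against D312A, 2 to 3 in D312A against WT, 1 to 3 in D312A against EGFP and 1 to 3 in WT against EGFP; fewer libraries make the call easier. Over all regions the shares called, per direction and pair of lines, were 0.294% to 4.37% with a value of at least 10, 0.604% to 3.49% with lists of equal length and 1.35% to 11.7% with a replicate number left out. The member regions open to a call in these settings were not counted.

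Members separating R298P from WT in summit number fell from 2 to 1 with lists of equal length and without summits in another span, were 2 with the replicate block, and 2 to 3 with a library left out. With the replicate block, R298P minus WT gave p = 0.25 in both AKT2 and RICTOR (exact permutation, two-sided). Members that differed between R298P and the other 9 libraries numbered 0 to 1 when a library was left out. AKT2 remained lower in every setting. In summits the difference ran from -1.22 with lists of equal length (exact permutation p = 0.0136) to -0.875 with a library left out. Leaving out an R298P library gave an exact permutation p of 0.0545. In the other unit, per 10000 summits of a list, the difference was -0.632 (exact permutation p = 0.00455). With the replicate block, over 64 choices, the exact permutation p was 0.03125. For D312A the number of members was 0 throughout.

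In summit number, the signs that turned belonged to differences that had not passed. R298P minus WT could not pass, since 0.1 is the smallest p of that exact permutation test. Differences of R298P and D312A from the other 9 libraries could pass unadjusted, and AKT2 in R298P alone had. R298P minus WT became 0.177 in PHLPP1 and 0.247 in PRR5 per 10000 summits, and 0.333 in PRR5 with lists of equal length; leaving out a library gave -1.33 to 1.17 in PRR5. R298P minus the other 9 became -0.667 in PHLPP1 and -0.444 in PRR5 with values of at least 10, -0.222 in PHLPP1 with lists of equal length and -0.0833 to 0.792 in PRR5 with a library left out. D312A minus the other 9 became 0.34 in PHLPP1 and 0.113 in PHLPP2 per 10000 summits and 0.111 in PHLPP2 with lists of equal length. The cause was not tested. Small numbers of summits, of unknown read depth, limit all of these values. The planned comparison with input expression was not run.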

Other observations

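TTI1, TELO2 and TTI2 form a co-chaperone complex that stabilises mTOR and related kinases, and were chosen here after their values were seen. TTI1 held more summits than any of the 8 regulators on average in D312A, with 5.0 ± 1.0, against 4.0 ± 1.0 in R298P, 5.67 ± 0.577 in WT and 5.67 ± 1.15 in EGFP (SD, n = 3). Its mean was also above that of PRR5 in EGFP (5.33) and WT (5.0), but below that of PRR5 in R298P (4.67). For TTI1, R298P was lower than the other 9 libraries by -1.44 summits, which did not pass (exact permutation test, two-sided, p = 0.0636). TELO2 held 1 summit in each of the 12 libraries. TTI2 held 1 summit in each R298P library, 1 or 2 in each EGFP and WT library and 0 in all 3 of D312A.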
